A study of Mus musculus with 39 samples.

Results

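The second mutant copy of phospholamban was examined by comparing the 4 libraries of mice homozygous for the Pln R14del allele with the 4 libraries of heterozygous mice, all from the left ventricle at 8 weeks of age. The members were chosen by genotype and age from the sample labels, and they are 8 of the 39 RNA-seq libraries of the series. The series followed hearts of wild-type and R14del mice at 3, 5 and 8 weeks and also profiled wild-type mice after ischemia-reperfusion, myocardial infarction or sham surgery. The homozygous group carried 2 mutant Pln copies and no wild-type copy, the heterozygous group carried 1 mutant and 1 wild-type copy, and 3 wild-type libraries of the same age served as the reference for the step from 0 to 1 mutant copies. All 3 groups were labelled with the C57BL6/J strain, left ventricle as tissue and no surgery, and no drug or transgene was labelled. The labels give neither the sex of these mice nor whether each library came from 1 animal, so the p-values measure only the spread between these libraries, which may be technical. They also do not say how the allele was made or how many founders the line has.

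Phospholamban is a small membrane protein of the sarcoplasmic reticulum that inhibits the calcium pump SERCA2a, the product of Atp2a2, in ventricular cardiomyocytes. Phosphorylation by protein kinase A or CaMKII relieves this inhibition, which speeds calcium reuptake and relaxation. Loss of the arginine codon called R14del is known in people, in the heterozygous state, as a cause of dilated and arrhythmogenic cardiomyopathy with protein aggregates and fibrosis.

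Codon 14 of the reference, the residue in the allele's name, lies at chr10:53343903-53343905 (GRCm38, plus strand) in exon 2 of 2 of Pln. The bases removed in these mice were not read from the data. The coding sequence of the reference strain is shown because the allele is the only labelled difference between the groups. It is taken from the GENCODE vM21 transcripts and the GRCm38 genome, spans chr10:53343864-53344022 on the plus strand, and has codon 14 in capitals. All 6 complete Pln transcripts share this one sequence of 159 bases, which encodes 52 residues.
Pln: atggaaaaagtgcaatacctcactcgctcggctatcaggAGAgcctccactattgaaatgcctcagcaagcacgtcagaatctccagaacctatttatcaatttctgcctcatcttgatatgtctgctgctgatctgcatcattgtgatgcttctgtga
The deposited counts are sums over the gene, so the mutant and the wild-type transcript of the heterozygous mice are not separated.

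The 8 libraries held between 15851489 and 19320791 counts assigned to genes, and the 3 wild-type libraries between 14585012 and 18396603. Values are given as CPM, a gene's count scaled to the total of its library, without further normalization. Genes were tested with edgeR's quasi-likelihood test in 1 fit over the 11 libraries of this age, and a gene was called when its Benjamini-Hochberg adjusted p over the 14314 tested genes was under 0.05. A log2 fold change is homozygous minus heterozygous unless stated, and is followed by its standard error.

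Pln itself was measured first. Its level was 5114, 4676 and 5067 CPM in the wild-type libraries, 5254, 4009.7, 5379 and 5186 CPM in the heterozygous libraries and 1993, 1829.8, 2257 and 1842 CPM in the homozygous libraries. All 4 homozygous libraries lay below all heterozygous ones. Pln fell with the second copy by 1.51 ± 0.14 on the log2 scale (edgeR adjusted p = 2.41e-06), to a level 2.86-fold lower, whereas the heterozygous mean of 4957 ± 637 (SD, n = 4) CPM stood beside 4952 ± 241 (SD, n = 3) CPM in wild type. The level does not read the deletion itself, so the labels of the groups are not checked by it.

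Heterozygous replicate 2 and homozygous replicate 1 stood apart from their groups, and both bear on the results. Heterozygous replicate 2 had more of the genes that were high in homozygous mice. On the first principal component of the 1000 most variable genes, which held 84.4% of their variance, the other heterozygous libraries lay between -35.4 and -33.1, the wild-type libraries between -33.3 and -31.4, the homozygous libraries between 42.8 and 63.5, and heterozygous replicate 2 at -19.2. Among genes called without this library whose fold change exceeded 2 on the log2 scale, it lay beyond the other 3 heterozygous libraries on the homozygous side for 66.2% of 772 genes that rose and 58.5% of 282 genes that fell. The same shares, each taken without the library in question, were 11.1% to 22.3% and 12.9% to 22.4% for the other 3. At the median gene it had gone 21.9% of the log2 distance to the homozygous mean for genes that rose and 12.6% for genes that fell. Homozygous replicate 1 lay short of its group in the same way, at 80.2% and 71.5% of the distance from the heterozygous mean to the other 3 homozygous libraries. Its share of counts on mitochondrial genes was 15.5%, against 8.27% to 10.6% in the other homozygous libraries and 16.8% to 18.6% in the heterozygous libraries. Printed folds of the genes named by rule are given both ways where the unlogged fold moved by more than 1.5 times without either library. Smaller moves are mostly not printed.

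**Figure D1:**
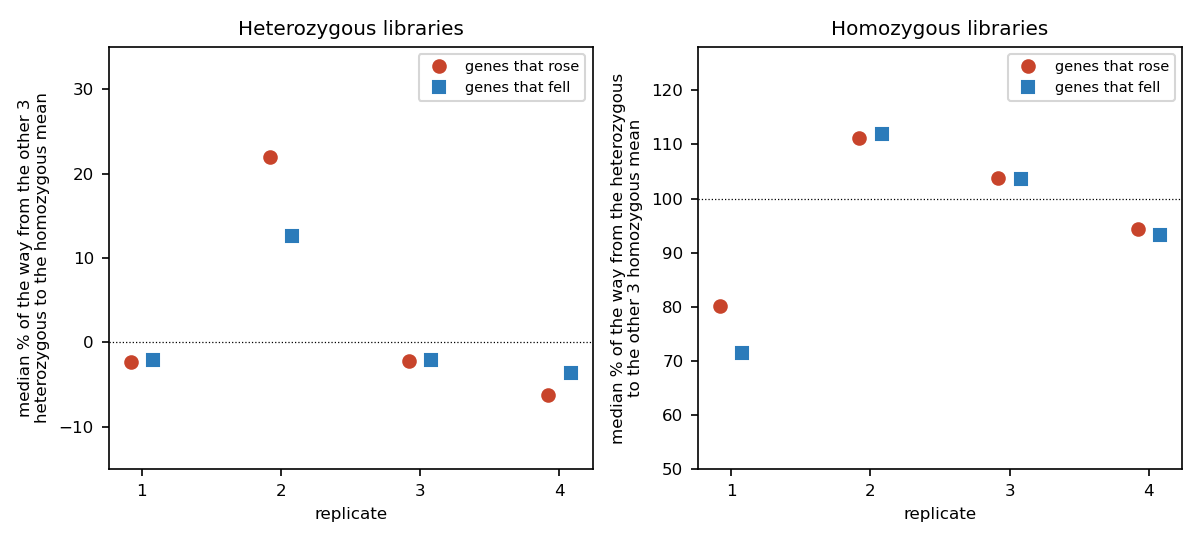
Each point is 1 library, numbered by replicate on the x axis. The y axis of the left panel gives the median percentage of the log2 distance from the other 3 heterozygous libraries to the homozygous mean, and that of the right panel the median percentage of the distance from the heterozygous mean to the other 3 homozygous libraries, for genes changed by more than 2 on the log2 scale without that library (circles, genes that rose; squares, genes that fell). Heterozygous replicate 2 sits at 21.9% and 12.6%, and homozygous replicate 1 at 80.2% and 71.5%.

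The second copy changed most of the expressed genes. Of 14314 genes tested, 8864 were called (61.9%), of which 4576 rose (32% of those tested) and 4288 fell (30%). The change exceeded 1 on the log2 scale in 1961 genes that rose and 1307 that fell, and exceeded 3 in 232 and 89. In 7598 genes (53.1%) the 4 homozygous libraries did not overlap the 4 heterozygous ones, 4987 lying higher and 2611 lower. Overlap was read on CPM without the trimmed-mean scaling used for the calls, so its split is not that of the calls. Of the 4987 higher genes 4197 were also called as risen, and of the 2611 lower genes 2609 were called as fallen. The median log2 fold change over all genes was 0.02. Scaling by library size alone, without the trimmed mean of M-values, moved that median to 0.22 and the split to 5970 genes higher and 2934 lower, so that 67% rather than 51.6% of the called genes were higher. Each list count below stands beside the 61.9% of all tested genes that were called, 32% higher and 30% lower. List counts below that moved by more than 1.5 times without 1 library are given with it, except where the count changed by 1 gene. Directions are relative to the trimmed-mean scaling. Under library size alone 44 of 774 tested list genes changed sign, of which 0 were called by edgeR under either scaling, and of the values printed below those of Actn2, Canx, Casq2, Cd36, Mki67, Pdk4, Tnnt2, Trim63, Ap4e1 and Gopc turned from negative to positive. In bulk tissue, fewer cells of a type and less RNA per cell cannot be told apart, which applies to every result below.

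For the step from wild type to 1 mutant copy the same test made no call. edgeR found 0 genes (0%) between heterozygous and wild-type libraries, DESeq2 and limma-voom also found 0, and the unadjusted edgeR p was under 0.05 for 326 genes (2.28%). The median absolute log2 fold change was 0.08 for the step from 0 to 1 copies and 0.48 for the step from 1 to 2 copies, and the steps share the heterozygous libraries. The wild-type and heterozygous libraries were also fitted alone, so that the homozygous libraries had no part in the spread, a choice made after seeing the data. By edgeR, 0 of 13653 genes passed there and 594 (4.35%) had a p below that limit before adjustment. Without heterozygous replicate 2, 6 of 13543 passed and 704 (5.2%) had such a p. A direct test of the difference between the steps on the log2 scale, the second step minus the first, called 4804 genes (33.6%), of which 2345 had the more positive second step and 2459 the more negative.

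**Figure D2:**
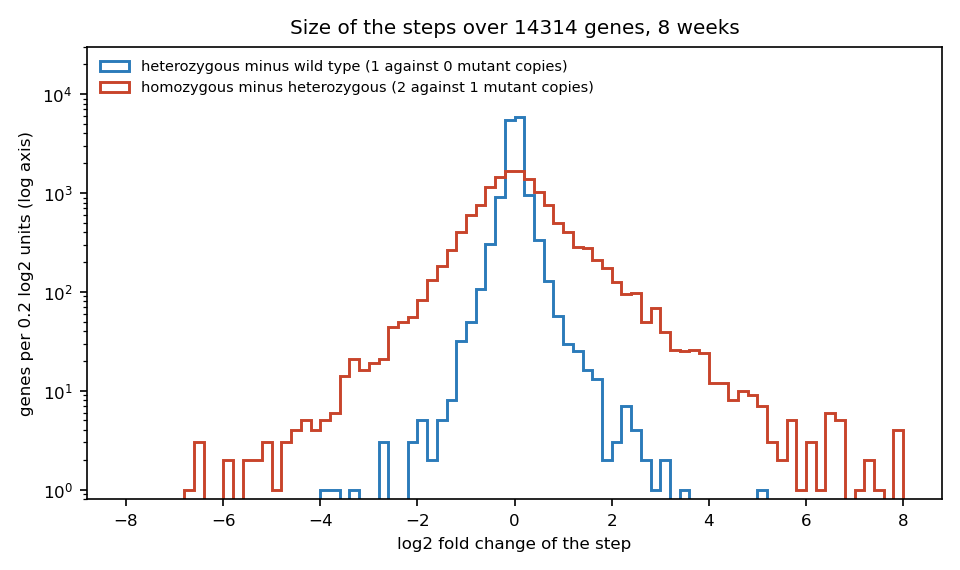
The x axis is the log2 fold change of each step and the y axis the number of genes per bin of 0.2 on a log axis, over 14314 genes, with values beyond 7.9 placed in the end bins. The step from 1 to 2 mutant copies (red) is wide, with a median absolute change of 0.48, and the step from 0 to 1 copies (blue) is narrow, at 0.08.

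Genes of the fetal and stress programme of the ventricle, which are high before birth and return under load, rose with the second copy. Of 22 tested members 14 rose and 1 fell, with a median log2 fold change of 1.67. Nppa, which encodes atrial natriuretic peptide, was at 221, 2224, 249 and 116 CPM in the heterozygous libraries and at 12522, 20172, 12380.5 and 16529 CPM in the homozygous ones. The high heterozygous value is replicate 2, and the groups did not overlap. Nppa rose by 4.28 ± 0.80 (edgeR adjusted p = 0.000474) and by 6.09 without heterozygous replicate 2. Nppb, which encodes B-type natriuretic peptide, was at 122, 353, 124 and 125 against 1057, 1281, 825 and 1123 CPM and rose by 2.38 ± 0.32.

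The myosin heavy chains moved in opposite directions. Myh7, the slow beta isoform that is fetal in the mouse ventricle, was at 59.6, 308, 56.4 and 75.5 CPM in heterozygous and 4279.9, 5074, 3373 and 4076 CPM in homozygous libraries. It rose by 4.90 ± 0.55 (edgeR adjusted p = 8.36e-06), and by 5.84 without heterozygous replicate 2, which was again the highest of its group. Exons of Myh7 overlap the antisense transcript Mhrt on the other strand, and whether the counting used strand is not given in the sources used here. Myh6, the fast alpha isoform of the adult mouse ventricle, was at 36019, 31871, 35837 and 34307 against 19419, 8862, 12939 and 10464 CPM. Homozygous replicate 1 held the most Myh6 of its group, still below every heterozygous library, and the gene fell by 1.58 ± 0.26 (adjusted p = 0.000188).

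Not every member of the programme rose. Acta1, skeletal alpha-actin, was at 352, 1879.5, 414 and 486 CPM in heterozygous and 1242, 95.6, 274 and 938 CPM in homozygous libraries. The groups overlapped over most of their range, and the log2 fold change of -0.43 ± 0.69 was not called (edgeR adjusted p = 0.611). Without heterozygous replicate 2 it was 0.45 and without homozygous replicate 1 it was -1.08, neither called. Actc1, cardiac alpha-actin, fell by 0.69 ± 0.24 (adjusted p = 0.0259), and its adjusted p rose to 0.0804 without homozygous replicate 3 and to 0.0558 and 0.0546 without heterozygous replicates 3 and 4, and to 0.0547 with the 8 libraries alone. Other members that rose were Ankrd1, a titin-associated stress protein, by 1.65, Xirp1, an actin-binding protein of the intercalated disc, by 0.74, and Ccn2, the matricellular connective tissue growth factor, by 4.34.

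**Figure D3:**
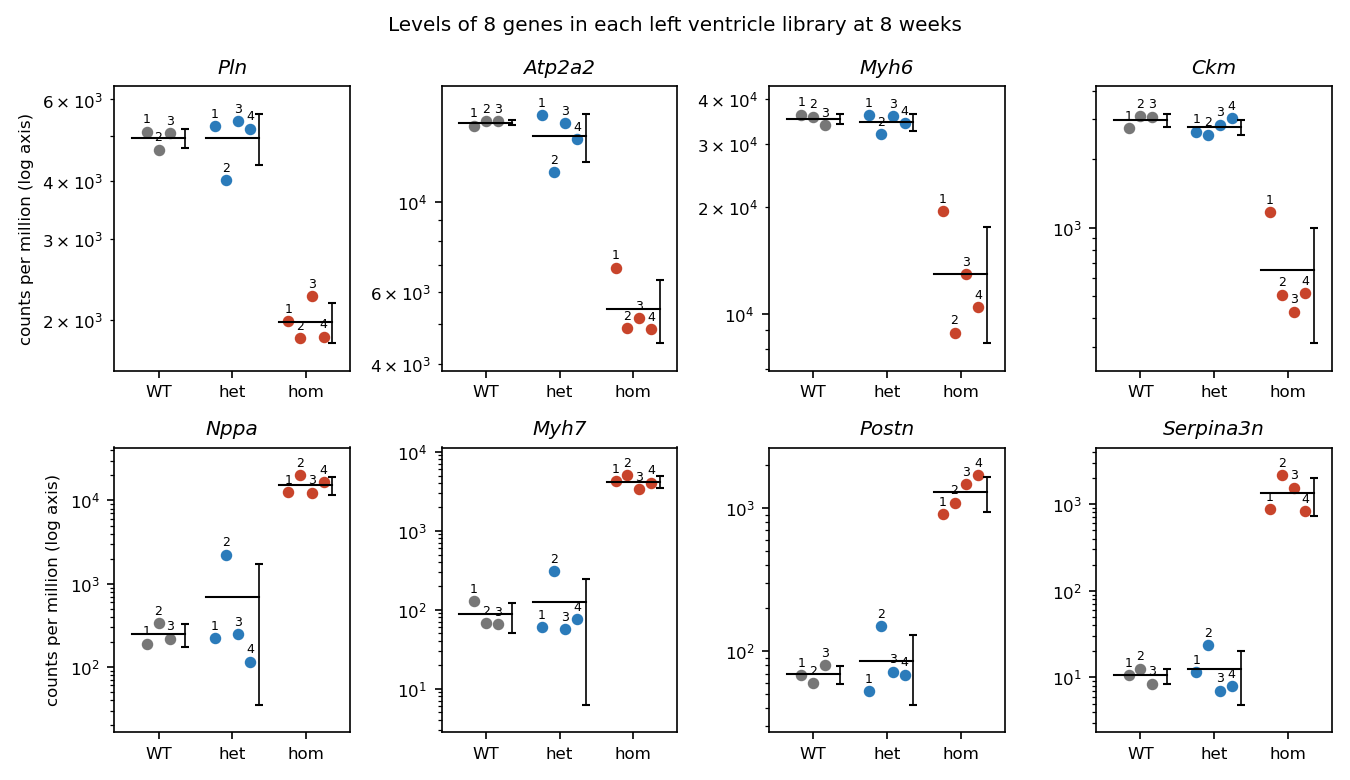
The y axis is CPM on a log axis and the x axis the genotype (WT, wild type; het, heterozygous; hom, homozygous). Points are libraries numbered by replicate, horizontal lines are means and bars are 1 SD, with the lower bar cut for heterozygous Nppa and Myh7 because the SD is about as large as the mean or larger. The 4 homozygous libraries lie below the heterozygous ones for Pln, Atp2a2, Myh6 and Ckm and above them for Nppa, Myh7, Postn and Serpina3n, and heterozygous replicate 2 is the highest of its group in the lower row.

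The largest rises by fold were in genes that heterozygous ventricles barely expressed. Serpina3n, a secreted serine protease inhibitor of the acute-phase response, was at 11.4, 23.6, 7 and 7.91 CPM in heterozygous and 877, 2159, 1539.7 and 827 CPM in homozygous libraries. It rose by 6.56 ± 0.44, or 94.4-fold (edgeR adjusted p = 2.68e-07). Angptl7, a secreted angiopoietin-like protein, went from 1.5, 2.09, 2.87 and 3.75 to 268, 435, 440.4 and 152 CPM and rose by 6.79 ± 0.40. The groups are separated by more than a factor of 10 in both genes.

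The other large rises start from few counts, so their fold is loosely determined. Sprr1a, a small proline-rich protein induced by stress in cardiomyocytes, had 51 counts in the 4 heterozygous libraries, most of them in replicate 2, and 5221 in the 4 homozygous ones. It rose by 6.56 ± 0.59, and by 8.48 without that library. Derl3, which takes part in endoplasmic reticulum-associated degradation, had 14 and 1559 counts and rose by 6.63 ± 0.65. Jaml, a junctional adhesion molecule of leukocytes, had 17 and 1819 counts, and Clec4d, a C-type lectin receptor of myeloid cells, had 11 and 1002. These rose by 6.56 ± 0.78 and 6.32 ± 0.59. In all 3 genes homozygous replicate 1 was the lowest or near the lowest of its group, at 4.55, 4.49 and 3.56 CPM. Serpina3m, a paralog in the Serpina3 cluster whose reads may be shared with its neighbours, had 4 and 766 counts and rose by 7.29 ± 0.88, and by 8.60 without heterozygous replicate 2. Rpph1, the RNA component of RNase P, is not polyadenylated and had 17 and 1328 counts, with 1.52, 30.1, 25.2 and 21.4 CPM in the homozygous libraries.

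The largest falls took genes of the adult ventricle to a small remainder. Itgb6, an integrin beta subunit that binds latent TGF-beta, was at 19.3, 21.3, 26 and 20.9 CPM in heterozygous and 0.7, 0.52, 0.114 and 1.32 CPM in homozygous libraries and fell by 5.25 ± 0.30 (edgeR adjusted p = 1.28e-07). Ky, the kyphoscoliosis peptidase of the muscle Z-disc, went from 49.4, 34.3, 39.9 and 39.5 to 1.87, 0.809, 1.82 and 1.89 CPM and fell by 4.86 ± 0.22, with the smallest adjusted p of all genes (8.7e-08). Neither gene overlapped between the groups. Ces1d, a carboxylesterase that hydrolyses stored lipid, was at 135, 64.6, 138 and 139 against 8.06, 7.75, 5.64 and 5.24 CPM and fell by 4.34 ± 0.27, and heterozygous replicate 2 was the low one of its group. Akap5, an anchoring protein that holds protein kinase A near membrane targets, had 493 counts over the heterozygous and 22 over the homozygous libraries. Akap5 fell by 4.54 ± 0.27, and with so few counts left the size of this fall is less sure than its direction. Lingo3, a leucine-rich repeat membrane protein, fell by 4.27 ± 0.27. The antisense gene Uckl1os fell by 4.42 ± 0.43, but it shares exon positions with Uckl1 and Zfp512b on the other strand, so its reads may not all be its own.

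Measured by CPM rather than by fold, the largest changes were in abundant transcripts, and the genes named for this were chosen after their values were seen. The largest loss was of mt-Co1, a mitochondrially encoded subunit of cytochrome c oxidase, from 57505 to 32869 CPM on average, followed by Myh6, from 34508 to 12921 CPM. The largest gain was of Nppa, from 702 to 15401 CPM, followed by Myh7, from 125 to 4201 CPM. Ankrd1, the intermediate filament gene Des and the secreted chaperone gene Clu came next, each gaining between 3086 and 3346 CPM.

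Genes of sarcoplasmic reticulum calcium cycling mostly fell. Of 28 tested members 16 fell and 4 rose, with a median of -0.44, and under library size alone 12 fell and 8 rose. The pump gene Atp2a2 was at 16267, 11819, 15583 and 14250.3 CPM in heterozygous and 6882, 4883, 5172 and 4867 CPM in homozygous libraries. All homozygous libraries lay below the heterozygous ones, although heterozygous replicate 2 and homozygous replicate 1 lay nearest each other, and Atp2a2 fell by 1.59 ± 0.19 (edgeR adjusted p = 1.44e-05). Its fall and that of its inhibitor Pln (1.51) were of like size, and the difference between these falls was not tested. Adrb1, the beta-1 adrenergic receptor upstream of protein kinase A, was at 26.3, 19.1, 21.3 and 22.7 against 5.84, 6.01, 5.3 and 9.53 CPM and fell by 1.95 ± 0.17. Camk2a, a CaMKII isoform that is minor in heart, fell by 1.84 ± 0.13, whereas Camk2d, the main cardiac isoform, fell by 0.44. Hrc, the histidine-rich calcium-binding protein of the reticulum, had the largest fall of the list, by 2.46. The release channel gene Ryr2 fell by 0.45, and the calsequestrin gene Casq2, at -0.05, was not called. Sri, which encodes the calcium-binding protein sorcin, rose by 0.83 ± 0.08. Fkbp1b, a ryanodine receptor-binding immunophilin, rose by 1.91, and the sodium-calcium exchanger gene Slc8a1 rose by 0.32. Sarcolipin, a relative of phospholamban that is atrial in the adult heart, is encoded by Sln and was at a mean of 8.29 CPM in heterozygous and 33.2 CPM in homozygous libraries, with a log2 fold change of 1.76 that was not called.

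Ion channel genes, which set the cardiac action potential, fell as a group. Of 27 tested members 20 fell and 1 rose, with a median of -1.06 against 0.02 over all genes, and 19 still fell under library size alone. Clcn1, the skeletal muscle chloride channel, was at 21.9, 7.65, 29 and 29.7 CPM in heterozygous and 0.35, 1.16, 0.741 and 0.82 CPM in homozygous libraries and fell by 5.04 ± 0.49. Its exons overlap Fam131b on the other strand. Kcnv2, a silent subunit that modifies voltage-gated potassium channels, fell by 4.29 ± 0.26. Kcnj2, the inward rectifier that holds the resting potential, went from 56.6, 37, 42.2 and 44.2 to 17.2, 15.9, 17.2 and 15.6 CPM and fell by 1.64 ± 0.13 (edgeR adjusted p = 7.71e-07). The homozygous values of Kcnj2 were tightly grouped and all below the heterozygous ones. The transient outward current genes Kcnd2 and Kcnip2 fell by 2.28 and 2.78. The sodium channel beta subunit gene Scn4b fell by 2.94 ± 0.26.

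Sarcomere and Z-disc genes were split. Of 27 tested members 10 fell and 6 rose, with a median of -0.33, and without homozygous replicate 1, 17 fell and 6 rose. In the main fit the share called was not above the 61.9% of all genes. Among the falls, Tnni3, the adult cardiac inhibitory troponin, was at 4205, 3620.4, 4116 and 4177 against 2080.2, 1380.2, 1499 and 1669 CPM and fell by 1.46 ± 0.17. Myl2, the ventricular regulatory light chain, fell by 1.20 ± 0.16, and Mylk4, a myosin light chain kinase family member, fell by 3.47 ± 0.43 and by 4.22 without homozygous replicate 1. Among the rises, Des, the muscle intermediate filament desmin, was at 2037, 2384, 1966 and 2035 against 4329, 4436, 5422 and 6857 CPM and rose by 1.12 ± 0.14. Pdlim5, a Z-disc adaptor, rose by 0.77 ± 0.09, and Flnc, filamin C, rose by 0.68. Tnnt2 and Actn2, which encode cardiac troponin T and alpha-actinin, were not called at -0.01 and -0.08.

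At the intercalated disc, which joins cardiomyocytes end to end, 7 of 16 members fell and 2 rose, with a median of -0.18. That median was 0.01 under library size alone, where 7 fell and 6 rose. With trimmed-mean scaling the share called was not above the 61.9% of all genes. Gja1, the ventricular gap junction protein connexin 43, was at 498, 427, 453 and 419 CPM in heterozygous and 161, 163, 225 and 286 CPM in homozygous libraries and fell by 1.31 ± 0.15 (edgeR adjusted p = 1.05e-05). Tmem65, a membrane protein of the disc, fell by 1.14 ± 0.11, and Tjp1, the scaffold ZO-1, fell by 0.65 ± 0.08. The desmosomal cadherin genes Dsc2 and Dsg2 fell by 0.83 and 0.76, whereas Dsp and Pkp2, desmoplakin and plakophilin 2, were not called at 0.12 and 0.17.

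Of 18 tested cardiac lineage transcription factors 7 fell and 2 rose, a share below the 61.9% called over all genes. Their median of -0.1 turned to 0.08 under library size alone, where 4 fell and 6 rose, and the number that rose was 0 by edgeR without heterozygous replicate 2 or 4 or homozygous replicate 3. Hopx, a homeodomain-only cofactor, fell by 1.72 ± 0.24. Irx4, a ventricular identity factor, fell by 1.12 ± 0.13, and Prdm16, a regulator of compact myocardium, fell by 0.98 ± 0.09. Gata6, a cardiac GATA factor, rose by 0.27 ± 0.11 (edgeR adjusted p = 0.0433), a call lost without heterozygous replicate 2 or 4, homozygous replicate 2 or 3, or any 1 wild-type library, with the 8 libraries alone, all 39 libraries or no filter, and with the replicate block, at adjusted p between 0.0613 and 0.12. Nkx2-5, Gata4 and Tbx5 were not called at 0.14, -0.22 and 0.16.

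Genes of mitochondrial energy metabolism fell together. All 34 nuclear genes of the respiratory chain list fell, from 0.52 for Ndufa1 to 1.87 for Cox7a1, with a median of -0.88. The homozygous libraries lay below the heterozygous ones for all 34, and the fall of all 34 exceeded the first step by the test of the difference. Cox7a1, the muscle isoform of a cytochrome c oxidase subunit, was at 589.9, 544, 612 and 629.7 CPM in heterozygous and 253, 157, 144 and 177 CPM in homozygous libraries. It fell by 1.87 ± 0.19 (edgeR adjusted p = 3.23e-06). Cox8b, another muscle isoform of that complex, was at 447, 419.9, 439 and 452 against 258, 271, 257 and 264 CPM, with little spread in either group, and fell by 0.93 ± 0.08.

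The 7 mitochondrially encoded genes that passed the filter on low counts, of 13 listed, also fell, with a median of -0.89. Those not tested were mt-Nd3, mt-Nd4l, mt-Co2, mt-Co3, mt-Atp6 and mt-Atp8, and 3 listed genes had 0 counts in the 8 libraries. Why these genes had few counts was not tested. mt-Nd4, a complex I subunit, was at 16834, 19909, 17399.9 and 19035 CPM in heterozygous and 15946, 9074, 10409.6 and 8921 CPM in homozygous libraries and fell by 0.89 ± 0.22 (edgeR adjusted p = 0.00398). Homozygous replicate 1 came close to the lowest heterozygous library, and the other 3 lay far below.

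Fatty acid uptake and oxidation, the main fuel route of the adult heart, showed 29 falls and 1 rise among 35 tested members, with a median of -1.11. Acaa2, the thiolase of the last step of mitochondrial beta-oxidation, was at 898, 656, 943 and 967 CPM in heterozygous and 269, 273, 218 and 249 CPM in homozygous libraries. It fell by 1.97 ± 0.14, or 3.92-fold, with no overlap (edgeR adjusted p = 4.05e-07). Hadh, a hydroxyacyl-CoA dehydrogenase, fell by 1.65 ± 0.13, and Eci1, an enoyl-CoA isomerase, fell by 1.77 ± 0.12. The mitochondrial entry gene Cpt1b fell by 1.14, whereas the fatty acid transporter gene Cd36, at -0.11, and the pyruvate dehydrogenase kinase gene Pdk4, at -0.01, were not called.

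The tricarboxylic acid cycle, pyruvate and branched-chain amino acid list had 28 falls and 0 rises by edgeR among 29 tested members, with a median of -1.04. Fh1, fumarate hydratase, was at 495, 449.9, 505 and 503 against 280.5, 216, 229 and 248 CPM and fell by 1.19 ± 0.12. Bckdhb, a subunit of the branched-chain ketoacid dehydrogenase, fell by 1.36 ± 0.13, and Suclg2, a succinate-CoA ligase subunit, fell by 1.10 ± 0.12. The member not called was Bcat2, the mitochondrial branched-chain aminotransferase, at -0.37. It was at 120, 173, 112 and 114 CPM in heterozygous and 100, 75.2, 143 and 140 CPM in homozygous libraries, so libraries differed within each genotype.

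Genes of glucose metabolism moved in both directions. Of 26 tested members 10 rose and 9 fell, with a median of 0.03. Among the falls, Eno3, muscle enolase, was at 1384, 1253, 1441 and 1499 against 518, 331, 452 and 395 CPM and fell by 1.90 ± 0.16 (edgeR adjusted p = 1.09e-06), and the insulin-responsive transporter gene Slc2a4 fell by 1.51. Pfkm, the muscle phosphofructokinase, and Hk2, the muscle hexokinase, fell by 1.15 and 1.25. Among the rises, Hk1, a hexokinase of most tissues, was at 229.8, 264, 204 and 229 against 390.2, 432, 466 and 477 CPM and rose by 0.73 ± 0.08, Pfkp, the platelet-type phosphofructokinase, rose by 1.43 ± 0.14, and the transporter gene Slc2a1 rose by 1.33. Slc16a3, a lactate exporter, rose by 2.77 ± 0.30. Exons of Pfkp overlap Pitrm1 on the other strand.

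In the creatine and adenine nucleotide shuttle, which carries energy from mitochondria to the myofilaments, 7 of 13 members fell and 2 rose, with a median of -0.43. Ckm, muscle creatine kinase, was at 2637, 2558, 2835 and 3036 CPM in heterozygous and 1168, 508, 428 and 516 CPM in homozygous libraries. Homozygous replicate 1 was again nearest the heterozygous group, and Ckm fell by 2.23 ± 0.31 (edgeR adjusted p = 4.17e-05). Ckmt2, the mitochondrial creatine kinase of sarcomeric muscle, fell by 1.15 ± 0.16, and Slc6a8, the creatine transporter, rose by 0.33 ± 0.09.

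Of 18 tested transcriptional regulators of metabolism 11 fell and 3 rose, with a median of -0.57, and 1 rose without heterozygous replicate 2 or 4 or homozygous replicate 2 or 3. Esrra, the estrogen-related receptor that drives respiratory chain genes, was at 172, 149.8, 173 and 166 against 91.2, 83.5, 95.4 and 104 CPM and fell by 1.01 ± 0.09 (edgeR adjusted p = 1.34e-06). The coactivator gene Ppargc1b fell by 1.49 ± 0.15 and its relative Ppargc1a by 0.55. Rxrg, a retinoid X receptor, fell by 1.84 ± 0.17. Ppara, the receptor that drives fatty acid oxidation genes, was not called at -0.44. The motif TCAAGGTCA, a binding element of the estrogen-related receptors, was searched on both strands of the RefSeq promoters (GRCm38.p6, 250 bases before to 50 after each gene's start). It was found for 1 of 25 respiratory chain members with a promoter in the table, Sdhd, against 0.466% of all 27025 genes there.

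**Figure D4:**
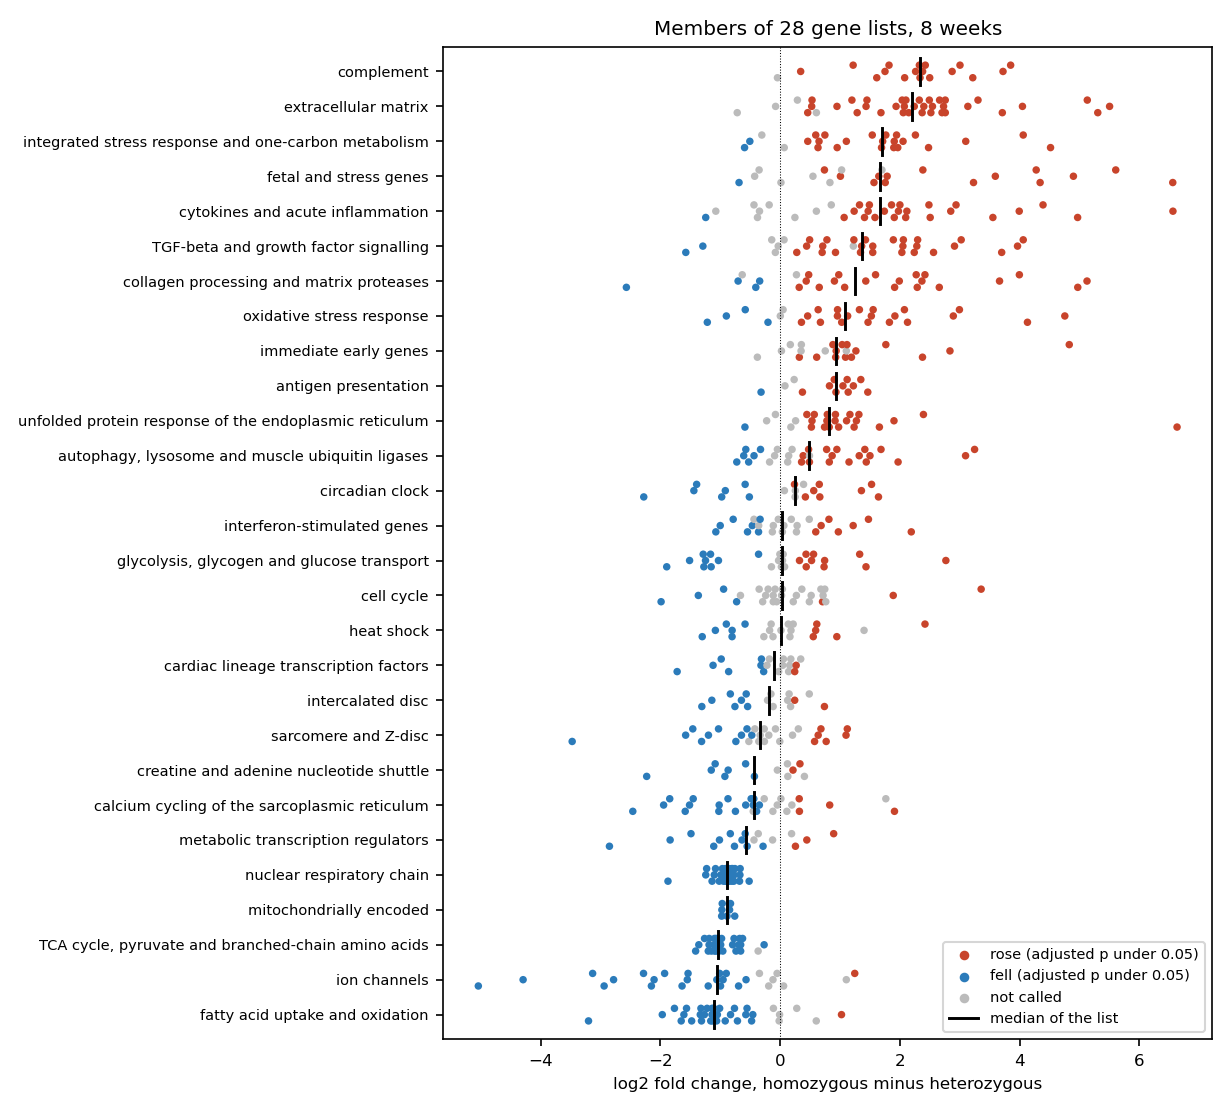
Each point is a tested member of 1 of 28 gene lists, the x axis is its log2 fold change (homozygous minus heterozygous), and the colour gives the edgeR call at an adjusted p under 0.05. Black ticks are list medians, sorted from fatty acid oxidation at -1.11 at the bottom to complement at 2.33 at the top, beside a median of 0.02 over all genes.

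Extracellular matrix genes rose. Of 38 tested members 34 rose and 0 fell by edgeR, with a median of 2.19, and 2 fell without homozygous replicate 4. Postn, the matricellular protein periostin of activated fibroblasts, was at 52.9, 151, 72.3 and 68.8 CPM in heterozygous and 908, 1094, 1476 and 1704 CPM in homozygous libraries. It rose by 3.71 ± 0.29, or 13.1-fold, with no overlap (edgeR adjusted p = 6.71e-07), and heterozygous replicate 2 was the highest of its group. The fibrillar collagen genes Col1a1 and Col3a1 rose less. Col1a1 was at 208, 348, 211 and 218 against 619, 744, 985 and 2027 CPM and rose by 1.94 ± 0.29, and Col3a1 was at 379, 675, 377 and 374 against 1169, 1280.3, 1778 and 4383 CPM and rose by 2.04 ± 0.35. Homozygous replicate 4 was the highest for both collagens, far above its group. Comp, a pentameric matrix glycoprotein best known from cartilage and tendon, was at 5.28, 21.2, 8.01 and 9.21 against 539.7, 598, 655 and 448 CPM and rose by 5.50 ± 0.38. Fbln2, fibulin 2, rose by 2.10 ± 0.12, and Mfap5, a microfibril protein, rose by 3.30 ± 0.25. The basement membrane collagen genes Col4a1 and Col4a2 rose by 0.46 and 0.53, at the low end of the list.

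Enzymes that process the matrix rose with it, 20 of 26 against 4 that fell, with a median of 1.25. Lox, the lysyl oxidase that crosslinks collagen, was at 5.07, 5.56, 4.14 and 3.07 against 99.7, 206, 258 and 156 CPM and rose by 5.13 ± 0.26 (edgeR adjusted p = 1e-07). Timp2, a metalloproteinase inhibitor, rose by 1.91 ± 0.12, and Loxl3, another lysyl oxidase whose exons overlap Htra2 on the other strand, rose by 2.66 ± 0.15. Mmp15, a membrane-type metalloproteinase, went the other way, from 179.8, 164, 164 and 164 to 38.1, 23.1, 27.7 and 39.9 CPM, and fell by 2.57 ± 0.16. Under library size alone 21 rose and 1 fell.

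In TGF-beta and growth factor signalling 26 of 33 tested members rose and 2 fell, with a median of 1.36. Among ligands, Tgfb2 rose by 2.24, Tgfb3 by 1.55 and Tgfb1 by 0.44, and Edn1, endothelin 1, rose by 2.91. Ltbp3, which binds latent TGF-beta, was at 65.8, 78.3, 72 and 69.2 against 184, 255, 249 and 272 CPM and rose by 1.55 ± 0.08 (edgeR adjusted p = 1.2e-07). Fstl3, an inhibitor of activins, rose by 2.28 ± 0.14. Ace, which makes angiotensin II, was at 85.4, 117, 90.5 and 83.4 against 402, 655, 631 and 434 CPM and rose by 2.30 ± 0.16, whereas Agtr1a, the receptor for that peptide, fell by 1.58 ± 0.16.

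The unfolded protein response raises chaperones and degradation factors when proteins misfold in the endoplasmic reticulum. Of its 25 tested members 20 rose and 1 fell, with a median of 0.82. Dnajc3, a co-chaperone that also restrains the kinase PERK, was at 51.2, 48, 50.4 and 42.1 CPM in heterozygous and 90, 191, 141 and 129 CPM in homozygous libraries and rose by 1.31 ± 0.15 (edgeR adjusted p = 8.31e-06). P4hb, the protein disulfide isomerase that is also a subunit of collagen prolyl hydroxylase, was at 253, 348, 251 and 247 against 675, 1189, 1048 and 1087 CPM and rose by 1.66 ± 0.14. Homozygous replicate 1 was the lowest of its group in both. Hspa5, the main chaperone of the reticulum (BiP), rose by 0.98, and Creld2, a secreted stress protein, by 1.90. Xbp1, whose spliced form is a transcription factor of the response, rose by 0.79, and the sensor gene Ern1 was not called at -0.23. Crebzf, a bZIP protein that binds other factors of the family, fell by 0.59 ± 0.15 (adjusted p = 0.00444), a call lost under library size alone (adjusted p = 0.0773).

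The promoters of this list held a known element of the response. The endoplasmic reticulum stress response element, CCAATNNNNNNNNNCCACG, searched on both strands, was present for 9 of 21 members with a RefSeq promoter, against 0.137% of 27025 genes. The list was made of genes of the response and the element is known from that response, so this share does not bear on the second copy. Of these 9 members 7 rose, beside 20 of 25 over the whole list, and Canx and Syvn1, at -0.08 and 0.26, were not called. The motif and its flanks are shown for the 4 members with the largest rises, in ascending order (RefSeq promoters, GRCm38.p6), 5′ to 3′ on the strand of the gene, with the motif or its reverse complement in capitals. The element holds a CCAAT box, which many promoters have. The members are Hspa5 at chr2:34771995-34772073 (plus strand, 0.98), Dnajc3 at chr14:118937797-118937875 (plus strand, 1.31), Creld2 at chr15:88819490-88819568 (plus strand, 1.90) and Derl3 at chr10:75893212-75893290 (plus strand, 6.63).
Hspa5: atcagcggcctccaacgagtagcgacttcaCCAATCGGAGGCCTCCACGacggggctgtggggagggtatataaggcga
Dnajc3: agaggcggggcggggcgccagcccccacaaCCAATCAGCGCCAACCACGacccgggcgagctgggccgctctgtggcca
Creld2: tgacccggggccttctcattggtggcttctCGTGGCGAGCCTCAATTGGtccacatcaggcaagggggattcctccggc
Derl3: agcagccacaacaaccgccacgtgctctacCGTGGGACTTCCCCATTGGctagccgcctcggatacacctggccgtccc
The element is forward in Hspa5 and Dnajc3 and reversed in Creld2 and Derl3, and the copy shown ends 46, 86, 107 and 137 bases before the start site. A match is a description of the letters and not a measured binding site.

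The integrated stress response, in which phosphorylated eIF2-alpha favours translation of ATF4, and its one-carbon and amino acid targets had 21 rises and 2 falls among 25 tested members, with a median of 1.69. Atf4 itself rose by 1.11. Nupr1, a stress-induced chromatin protein, was at 5.28, 7.88, 4.56 and 4.44 CPM in heterozygous and 36.9, 51.9, 64.6 and 65 CPM in homozygous libraries and rose by 3.10 ± 0.19 (edgeR adjusted p = 1.61e-07). Slc3a2, the heavy chain of amino acid transporters, was at 40.6, 43.1, 43.6 and 39.4 against 97.1, 211, 173 and 150.4 CPM and rose by 1.71 ± 0.15, and Ppp1r15a, which brings a phosphatase to eIF2-alpha, rose by 1.69 ± 0.16. Among one-carbon enzymes of mitochondria, Mthfd2 rose by 2.48, whereas Shmt2 fell by 0.51 ± 0.09. The secreted hormone gene Fgf21 was called as higher from 3 counts over the heterozygous and 62 over the homozygous libraries, too few for a fold.

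The letters TGATGNAA, the core of the element bound by ATF4 with C/EBP partners, were searched in the same promoters. They were present on either strand for 9 of 23 members, against 4.51% of all genes. Here too the list was made of genes of the response, so this share does not bear on the second copy. Of these 9 members 8 rose, beside 21 of 25 over the whole list, and Vldlr, a lipoprotein receptor, fell by 0.59. For the place of the element, in capitals, 4 members are shown: Asns, asparagine synthetase, at chr6:7693210-7693262 (minus strand, 2.05), Nupr1 at chr7:126625543-126625610 (minus strand, 3.10), Fgf21 at chr7:45615592-45615659 (minus strand) and Slc7a11, the cystine transporter, at chr3:50443642-50443709 (minus strand, 4.52 from 8 and 210 counts).
Asns: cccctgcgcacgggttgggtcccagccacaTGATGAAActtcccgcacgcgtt
Nupr1: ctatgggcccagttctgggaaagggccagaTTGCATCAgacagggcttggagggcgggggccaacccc
Fgf21: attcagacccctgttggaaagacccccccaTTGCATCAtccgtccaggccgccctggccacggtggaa
Slc7a11: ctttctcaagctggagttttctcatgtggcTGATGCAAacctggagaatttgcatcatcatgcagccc
The element is forward in Asns and Slc7a11 and reversed in Nupr1 and Fgf21, where it ends 102 and 131 bases before the start site. The reversed letters recur in lower case in the window of Slc7a11.

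Heat shock and folding genes outside the endoplasmic reticulum did not move as a group, with 5 rises and 6 falls among 21 tested members and a median of 0.01. Hspd1, the mitochondrial chaperonin, was at 273, 228, 285 and 291 against 139.8, 119.7, 106 and 131 CPM and fell by 1.30 ± 0.13, and Hsf1, the heat shock transcription factor, fell by 1.08 ± 0.09 (edgeR adjusted p = 7.84e-07). Hspd1 shares exon positions with Hspe1 on the other strand, which fell by 0.59. Hspb1, a small heat shock protein, rose by 0.95 ± 0.13. Cryab and Bag3, which keep sarcomere proteins folded, were not called at 0.01 and 0.16. Under library size alone 8 rose and 6 fell.

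In the oxidative stress response 20 of 26 members rose and 4 fell, with a median of 1.08. Gclm, a subunit of the enzyme that limits glutathione synthesis, was at 21, 21.9, 19.1 and 20.9 CPM in heterozygous and 55.2, 77.8, 68.5 and 78.5 CPM in homozygous libraries and rose by 1.55 ± 0.08 (edgeR adjusted p = 1.2e-07). G6pdx, which supplies NADPH, rose by 1.52 ± 0.10, with exons that overlap Ikbkg on the other strand. Gpx3, the secreted glutathione peroxidase, rose by 2.89 ± 0.23. The members that fell were Prdx1 and the mitochondrial enzymes Sod2, Prdx3 and Prdx5, and Prdx3 was at 285, 279, 301 and 312 against 202, 169, 169 and 178 CPM.

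Of 30 tested genes of autophagy, the lysosome and muscle ubiquitin ligases 17 rose and 6 fell, with a median of 0.48. Ctsk, the lysosomal protease cathepsin K, was at 6.73, 9.39, 5.62 and 6.2 against 37.3, 79.6, 79.8 and 79.7 CPM and rose by 3.10 ± 0.20. Homozygous replicate 1 had the lowest Ctsk of its group. Bnip3, a mitophagy receptor, rose by 1.97 ± 0.14 (edgeR adjusted p = 3.09e-07), and the autophagy adaptor gene Sqstm1 rose by 1.41. The muscle ubiquitin ligase gene Fbxo32, which encodes atrogin 1, rose by 0.47, and Trim63, which encodes MuRF1, was not called at -0.05. Cavin4, a caveolar protein of muscle, fell by 0.72 ± 0.10.

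Cytokine and acute inflammation genes rose in 23 of 32 tested members and fell in 1, with a median of 1.66. Lcn2, the iron-sequestering lipocalin 2, was at 1.45, 2.09, 1.33 and 1.76 CPM in heterozygous and 34.3, 61.5, 42.4 and 20.6 CPM in homozygous libraries and rose by 4.39 ± 0.31 (edgeR adjusted p = 3.57e-07). Ccl6, a chemokine of myeloid cells, was at 8.28, 8.34, 8.07 and 8.25 against 55.7, 104, 62.9 and 68 CPM and rose by 2.94 ± 0.16. The classical cytokine genes Il1b and Tnf were not called at -0.38 and -1.08, and Il6 did not pass the filter on low counts. Cxcl12, a chemokine that retains leukocytes and stem cells, fell by 1.24 ± 0.25.

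The complement list rose in 17 of 18 tested members, with 0 falls by edgeR and the highest median of the 28 lists, 2.33. Clu, clusterin, a complement inhibitor and extracellular chaperone, was at 534, 857, 638 and 568 CPM in heterozygous and 2869, 3729, 4103 and 4239 CPM in homozygous libraries and rose by 2.32 ± 0.15 (edgeR adjusted p = 2.36e-07). C4b, a component of the classical pathway, was at 20.2, 31.6, 22.5 and 15.5 against 289, 439, 354 and 272 CPM and rose by 3.72 ± 0.21. C1qa, a chain of the recognition molecule made by macrophages, rose by 2.38 ± 0.15.

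Interferon-stimulated genes were split, with 7 rises and 7 falls among 25 tested members and a median of 0.04. Their share called was below the 61.9% of all genes. Without heterozygous replicate 2 or homozygous replicate 2 or 3, 8 rose and 4 fell, and without homozygous replicate 4, 5 rose and 10 fell. Under library size alone 10 rose and 3 fell. Ifi27l2a rose by 2.19 ± 0.15. Antigen presentation genes rose in 10 of 13 members and fell in 1, with a median of 0.93. H2-Aa, a class II chain, was at 62.9, 64.7, 49 and 46 against 122, 188, 125 and 219 CPM and rose by 1.35 ± 0.20. H2-D1, a class I heavy chain with close relatives that can share reads, rose by 1.22 ± 0.17. Tap2, a peptide transporter subunit, fell by 0.32 ± 0.10 (edgeR adjusted p = 0.0112), a call lost under library size alone (adjusted p = 0.288).

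Circadian clock genes moved in both directions, 8 rises and 7 falls among 19 members with a median of 0.25. Arntl, the activator BMAL1, was at 9.47, 9.68, 4.99 and 8.47 CPM in heterozygous and 35.9, 28.3, 23.9 and 27 CPM in homozygous libraries and rose by 1.64 ± 0.25. Dbp, an output factor of the clock whose exons overlap Sphk2 on the other strand, was at 149, 137, 146 and 130.0 against 15.2, 28.6, 51.2 and 39.4 CPM and fell by 2.28 ± 0.26 (edgeR adjusted p = 1.04e-05). Per1 and Nfil3, a period gene and a repressor, rose by 1.36 and 1.53. The hour at which the hearts were taken is not given in the labels, and its part in these values was not tested. Immediate early genes rose in 14 of 21 members, with 0 falls by edgeR and a median of 0.94. Myc was at 4.09, 6.14, 3.71 and 2.73 against 16.3, 31.9, 21 and 30.8 CPM and rose by 2.38 ± 0.22, whereas Jun and Egr1 were not called at -0.38 and 0.35. Fosl1, an AP-1 subunit, had 4 counts over the heterozygous and 137 over the homozygous libraries, and its exons overlap the more abundant Ccdc85b on the other strand.

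Cell cycle genes did not move as a group, with 3 rises and 4 falls among 27 tested members and a median of 0.02, and 7 rises and 4 falls under library size alone. The proliferation markers Mki67 and Top2a were not called at -0.20 and -0.24. Cenpf, a kinetochore protein, fell by 1.99 ± 0.26, Mcm2, a replication helicase subunit, fell by 1.37 ± 0.20, and Ccnd1, cyclin D1, fell by 0.73 ± 0.12. Cdkn1a, the cell cycle inhibitor p21, was at 16.8, 45.3, 14.9 and 18 CPM in heterozygous and 350.1, 326, 236 and 178 CPM in homozygous libraries and rose by 3.36 ± 0.38 (edgeR adjusted p = 8.52e-06).

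Marker lists of cell types moved beside these groups, and their part in the changes was not tested. For the tissue label, cardiomyocyte genes were high in every library, with summed levels of 79575 to 86835 CPM over the heterozygous and 37890.3 to 56808 CPM over the homozygous libraries. Of 12 cardiomyocyte markers 9 fell and 0 rose by edgeR, with a median of -0.99. Of 14 fibroblast markers 12 rose, with a median of 1.81 and a summed level of 2639 to 4023 CPM against 8552 to 14715 CPM. Pdgfra, a receptor that marks resident fibroblasts, was at 40.6, 48.6, 35.5 and 33.8 against 117, 184, 159 and 124 CPM and rose by 1.68 ± 0.13, and Dpt, dermatopontin, rose by 1.32 ± 0.11. Of 15 markers of activated fibroblasts 12 rose, with a median of 3.13 and a summed level of 358 to 705 against 2969 to 4755 CPM. Several of these markers are matrix genes that were counted above.

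Of 19 tested macrophage markers 16 rose and 1 fell, with a summed level of 316 to 393 against 1259.8 to 2705 CPM. Mrc1, a scavenger receptor of resident macrophages, was at 29.2, 29.1, 24 and 25.3 CPM in heterozygous and 93.2, 174, 149.9 and 133 CPM in homozygous libraries and rose by 2.15 ± 0.13 (edgeR adjusted p = 1.75e-07). Spp1, osteopontin, was at 0.725, 1.45, 0.902 and 0.796 against 18, 48.6, 46.6 and 44.3 CPM and rose by 5.13 ± 0.30, and Lgals3, galectin 3, rose by 5.60 ± 0.39. Timd4, a receptor of self-renewing resident macrophages, fell by 1.50 ± 0.46 (adjusted p = 0.0124) and by 2.17 without homozygous replicate 1. The recruitment receptor gene Ccr2 was not called at 1.21. Of 8 listed neutrophil markers 4 passed the filter on low counts. These 4 rose, at summed levels of only 1.91 to 4.4 against 7.87 to 15.1 CPM. At such levels a gene can pass the filter through the homozygous libraries alone, which favours rises among the tested members. The T cell and mesothelial lists share this limit. Of 11 listed T and natural killer cell markers 7 were tested. Of these 5 rose, at summed levels of 3.75 to 6.72 against 7.65 to 40.7 CPM, and 3 rose without homozygous replicate 2 or 4. Cd3e, a chain of the T cell receptor complex, was at 0.207, 0.869, 0.159 and 0.0569 against 0.409, 22.4, 14.2 and 18 CPM, so that homozygous replicate 1 lay inside the heterozygous range while the other 3 lay far above it. It rose by 5.17 ± 0.90, and by 6.27 without heterozygous replicate 2. Of 4 tested B cell markers 1 fell and 0 rose by edgeR, at 11.3 to 19.7 against 7.13 to 22.8 CPM. Their median of -0.65 turned positive where fewer of the genes were tested, and 3 fell without homozygous replicate 4.

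Endothelial markers were divided, 8 rises and 6 falls among 16, at summed levels of 2427 to 2692 against 2689.7 to 4196 CPM. Kdr, the VEGF receptor of capillary endothelium, was at 333, 271, 253 and 258 CPM in heterozygous and 76.4, 86.5, 76.4 and 108 CPM in homozygous libraries and fell by 1.88 ± 0.13 (edgeR adjusted p = 3.4e-07). Vwf, von Willebrand factor of larger vessels, was at 91, 92, 76.8 and 69.6 against 584, 1108, 964 and 365 CPM and rose by 3.00 ± 0.28, and Plvap, a diaphragm protein of fenestrated and venous endothelium, rose by 2.82 ± 0.19. The groups did not overlap for these 3 genes. Of 13 smooth muscle and pericyte markers 8 fell and 2 rose, with a median of -0.69, and Smtn, smoothelin, fell by 1.62 ± 0.09. Their summed level was 3745 to 4476 CPM against 5531 to 8204 CPM, with Des, which cardiomyocytes also express, the most abundant of them.

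Of 5 tested lymphatic markers 4 rose and 1 fell, at 108 to 116 against 187 to 424 CPM, and Ccl21a had 0 counts in the 8 libraries. Mmrn1, multimerin of lymphatic vessels, rose by 3.40 ± 0.38, whereas Prox1, the lymphatic transcription factor that cardiomyocytes also express, fell by 0.78 ± 0.09. Of 8 listed epicardial and mesothelial markers 6 were tested and 4 rose, and homozygous replicate 1 was lowest for Msln and Upk3b, with 1.87 and 1.34 CPM. Of 8 tested atrial markers 3 rose and 1 fell, or 6 and 1 under library size alone and 5 and 1 without heterozygous replicate 3, and Nppa is the most abundant of them. Bmp10, a growth factor specific to the atrium, had 0 counts in the 8 libraries. Of 5 tested skeletal muscle markers 1 rose and 3 fell, and Myh1, Myh2 and Myh4 did not pass the filter. Tnnt3, fast skeletal troponin T, was at 0.776, 3.24, 0.212 and 0.341 against 4.03, 7.92, 5.19 and 7 CPM and rose by 2.21 ± 0.55, and by 3.52 without heterozygous replicate 2. Mylpf, a fast skeletal light chain, fell by 2.22 ± 0.56 and by 1.44 without that library, and Tnni2, fast skeletal troponin I, fell by 0.97 ± 0.36 with a call that was lost without it (edgeR adjusted p = 0.143), without homozygous replicate 2 or 3 (0.0876 and 0.092), under library size alone (0.0856) and with the replicate block (0.0937). Adipocyte markers gave 1 rise among 5, or 4 without homozygous replicate 1 or heterozygous replicate 1, Schwann cell markers gave 2 rises among 5, and of 5 erythroid markers 0 were called by edgeR.

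**Figure D5:**
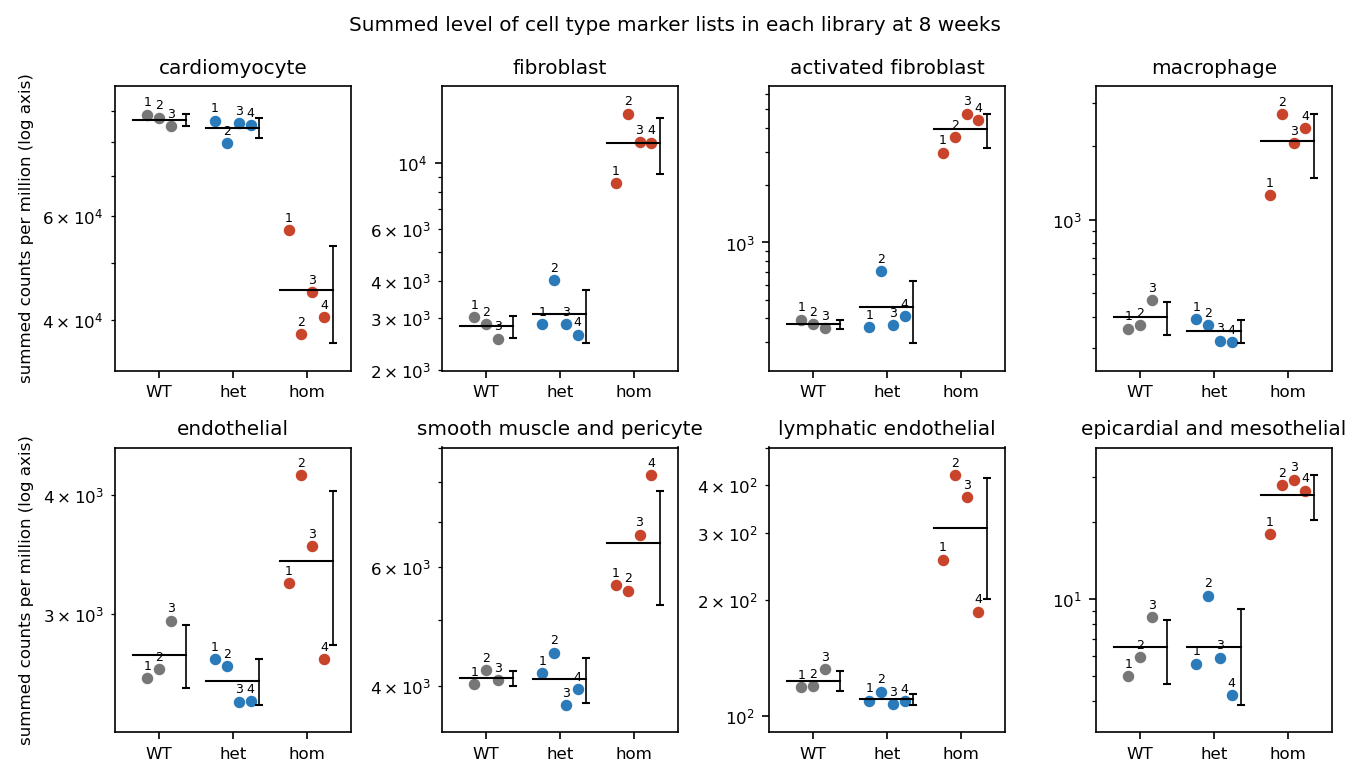
The y axis is the summed CPM of a marker list on a log axis and the x axis the genotype (WT, wild type; het, heterozygous; hom, homozygous), with libraries numbered by replicate, means as lines and 1 SD as bars. The homozygous libraries lie below the others for cardiomyocyte markers, at 37890.3 to 56808 CPM, and above them for fibroblast, activated fibroblast, macrophage, lymphatic and mesothelial markers, with homozygous replicate 1 nearest the heterozygous group for cardiomyocyte, fibroblast, activated fibroblast, macrophage and mesothelial markers.

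The test of the difference between the steps shows where the second step differed from the first on the log2 scale. A first step in the opposite direction enlarges this difference beyond the second step. For Pln the second step minus the first was -1.55 (edgeR adjusted p = 0.000719). The largest positive differences among called genes with at least 5 CPM in 1 group were of Serpina3m at 8.32 (10.94 without heterozygous replicate 2), Clec4d at 7.60, Atp6v0d2, a proton pump subunit of osteoclasts and some macrophages, at 7.49, Angptl7 at 6.86 and Clca3a1, a secreted chloride channel regulator, at 6.77. In that order their second steps alone were 7.29, 6.32, 5.93, 6.79 and 5.63, so each difference also holds a first step below 0. None of these first steps was called. Atp6v0d2 had 6 counts in the heterozygous and 13 in the wild-type libraries, with a first step of -1.56 ± 1.04. The call for Serpina3m was lost without heterozygous replicate 1, 3 or 4 or wild-type replicate 1 or 2. The largest negative differences were of Itgb6 at -5.35, Clcn1 at -5.35, Ky at -4.93, Uckl1os at -4.84 and Mycn, a MYC family transcription factor, at -4.56. Here the second steps were -5.25, -5.04, -4.86, -4.42 and -4.26, so each difference also holds an uncalled first step above 0. Mycn was at 7.39, 4.76 and 9.67 CPM in wild-type, 8.59, 9.15, 8.7 and 8.42 in heterozygous and 0.175, 0.52, 0.513 and 0.883 in homozygous libraries, so that wild-type and heterozygous values overlapped and the homozygous ones lay apart.

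For some genes the answer rests on heterozygous replicate 2. The difference between the steps for Nppa was 2.77 and was not called (edgeR adjusted p = 0.122), whereas without that library it was 6.41 (adjusted p = 3.69e-05). Sprr1a, the interleukin 7 receptor gene Il7r and Tnnt3 were likewise called only without it, at adjusted p of 0.0403, 0.0338 and 0.00197. For mt-Co1, mt-Nd2 and mt-Nd4 the call of 0.0434, 0.0433 and 0.0464 moved to 0.066, 0.0732 and 0.0892 without heterozygous replicate 2 and to 0.000159, 8.17e-05 and 7.37e-05 without homozygous replicate 1.

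The genes within 1 Mb of Pln on chromosome 10 were read because they lie on the stretch around the mutated gene. Of the 9 that passed the filter besides Pln, Man1a, a mannosidase of the Golgi, was at 30.6, 28.7, 23.9 and 23.1 against 61.4, 71, 66.6 and 71.4 CPM and rose by 1.15 ± 0.09 (edgeR adjusted p = 6.83e-07). Nus1, a subunit of the dolichol-synthesising enzyme, rose by 0.44 ± 0.07, Fam184a rose by 1.04 ± 0.30, and Mcm9, a helicase of DNA repair, rose from 5.02, 4.93, 4.03 and 5.35 to 8.64, 13.7, 13.4 and 8.52 CPM (edgeR adjusted p = 0.000308). Nepn, a secreted leucine-rich repeat protein, fell by 1.47 ± 0.38, and Slc35f1, a solute carrier family member, fell by 1.11 ± 0.39, a call lost without heterozygous replicate 2 (adjusted p = 0.0945) or homozygous replicate 3 or 4 (0.0759 and 0.0608). Gopc and Asf1a were not called at -0.19 and 0.04, although Gopc passed as lower with the 8 libraries alone (adjusted p = 0.0369). Cep85l, whose exons overlap Pln on the other strand, was at 2.74, 1.74, 1.8 and 1.71 against 2.04, 1.62, 1.25 and 0.883 CPM and was not called at -0.64 ± 0.30 (adjusted p = 0.0844), although it passed without homozygous replicate 1 (adjusted p = 0.0175). With 6 of 9 neighbours called, the share is near the 61.9% of all genes.

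The genes with the smallest p in the first step show how far 1 copy stood from wild type. Raph1, an actin regulator of lamellipodia, was at 26, 27.8 and 30.4 CPM in wild-type, 22.1, 18.4, 20 and 20.2 in heterozygous and 63.1, 68.3, 82.1 and 67.8 in homozygous libraries. Heterozygous values lay below wild type and homozygous values above both, with a first step of -0.44 that was not called (edgeR adjusted p = 1) and a second step of 1.61 ± 0.09 (adjusted p = 1.28e-07). Trim56, a ubiquitin ligase, had a first step of -0.42 and Ap4e1, an adaptor subunit of vesicle transport, of -0.53, and their second steps of -0.20 and -0.10 were not called. Chml, a Rab escort protein, stood at or below 2 CPM in every library and shares exons with Opn3 on the same strand.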

How the data were processed

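RNA of left ventricles was sequenced from TruSeq stranded mRNA libraries, per the labels' protocols. STAR 2.7.3a, featureCounts of Subread 2.0.0 and mm10 are named in the submitters' processing notes. Neither the annotation release nor the strand setting is given in the sources used here. The authors deposited 1 table of unnormalised read counts for 38293 genes in 39 libraries, per the file header. Gene symbols came from GENCODE vM21 for 36429 genes, and the unnamed 1864 held 0.1334% of counts.

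Counts of the 11 libraries of this age were filtered with filterByExpr and fitted with edgeR 4.0.16 (R 4.3.3), using trimmed-mean scaling and the quasi-likelihood test, with Benjamini-Hochberg adjustment at 0.05. Standard errors were taken as the absolute log2 fold change over the root of F. DESeq2 1.42.0 and limma 3.58.1, other scalings and filters, the 8 libraries alone, all 39 libraries and leaving out each library were alternatives. The fit was tested on simulated data.

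Named genes were chosen by rule: Pln and 9 markers, tested neighbours within 1 Mb of Pln, the 8 largest rises and falls among called, non-overlapping genes with at least 5 CPM, the 5 largest differences between steps each way, the 5 smallest p for the first step, and from each list the 3 smallest p in its main direction and the smallest in the other. Genes outside the rule, such as list extremes, well-known members and genes with a promoter motif, were added with their values known. The members and the lists were chosen with earlier results of these data known. A few named genes are not reported here.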

Additional observations from a re-analysis of the deposited data

Results flagged for a closer look

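In 38 of 344 groups of 4 libraries, taken over 172 named genes, the highest or lowest library was separated from the others by a gap above Dixon's 95% critical value. Chance marks about 1 in 20 groups of independent, normally distributed values. The genes share the same 8 libraries and were partly chosen by their values, so that rate is no exact reference. Heterozygous replicate 2 accounted for 24 of the 38 and homozygous replicate 1 for 8. Over all tested genes the same rule marked heterozygous replicate 2 in 3.71%, homozygous replicate 1 in 3.07% and homozygous replicate 4 in 2.68%, and each of the other libraries in at most 1.14%. What sets these libraries apart was not tested.

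Stress and muscle genes in which heterozygous replicate 2 was highest, beside the range of its group, were Nppa at 2224 CPM against 116 to 249, Nppb at 353 CPM against 122 to 125, Myh7 at 308 CPM against 56.4 to 75.5 and Acta1 at 1879.5 CPM against 352 to 486. It was likewise highest for Sprr1a at 2.38 CPM against 0.106 to 0.227, Des at 2384 CPM against 1966 to 2037, Mylpf at 4.11 CPM against 0.828 to 1.33 and Cdkn1a at 45.3 CPM against 14.9 to 18. Above its group it also had Ppp1r15a at 38 CPM against 23.7 to 25, P4hb at 348 CPM against 247 to 253 and Mcm2 at 15.5 CPM against 10.6 to 11.3. Matrix genes highest in that library were Col1a1 at 348 CPM against 208 to 218, Col3a1 at 675 CPM against 374 to 379, Ccn5, a matricellular protein, at 32.9 CPM against 12.3 to 13.7 and Timp2 at 174 CPM against 126 to 129. Immune and vessel genes highest in that library were Lgals3 at 7.53 CPM against 2.84 to 3.61, Il7r at 0.464 CPM against 0.0531 to 0.114, H2-DMb1, a class II loading chain, at 4.52 CPM against 2.84 to 3.11 and Gpihbp1, the anchor of lipoprotein lipase, at 70.9 CPM against 60.7 to 61.9. It was lowest for Camk2a at 47.7 CPM against 68 to 70.7, Ces1d at 64.6 CPM against 135 to 139, Pln at 4009.7 CPM against 5186 to 5379, Shmt2 at 52.2 CPM against 59.2 to 60.4 and Tnni3 at 3620.4 CPM against 4116 to 4205.

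Homozygous replicate 1 was the highest of its group for Atp2a2 at 6882 CPM against 4867 to 5172, Ckm at 1168 CPM against 428 to 516, Myl2 at 4677 CPM against 3476 to 3589.6 and Suclg2 at 78.5 CPM against 61.1 to 63.4, all genes that fell with the second copy. It was the lowest for Ctsk at 37.3 CPM against 79.6 to 79.8, Msln at 1.87 CPM against 9.08 to 9.8, Spp1 at 18 CPM against 44.3 to 48.6 and Upk3b at 1.34 CPM against 3.79 to 4.28, all genes that rose. The remaining gaps were those of Adrb1 at 9.53 CPM in homozygous replicate 4 against 5.3 to 6.01, Cep85l at 2.74 CPM in heterozygous replicate 1 against 1.71 to 1.8, Chml at 0.684 CPM in homozygous replicate 3 against 0.505 to 0.525. They also include Ky at 0.809 CPM in homozygous replicate 2 against 1.82 to 1.89, Mmp15 at 179.8 CPM in heterozygous replicate 1 against 164 to 164 and Mylpf at 0.171 CPM in homozygous replicate 3 against 0.505 to 0.525.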

How the results depend on the processing

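The count of 8864 genes called between homozygous and heterozygous libraries stayed within 1.5 times under every alternative run, from 8081 to 9111 genes when 1 library was left out, 8885 by DESeq2 and 9932 by limma-voom. The count for the difference between the steps was 4804, between 3441 and 5793 when 1 library was left out, and 7399 by limma-voom with quality weights. Homozygous against wild type gave 8553 genes, between 7579 and 8868 with 1 library left out. Heterozygous against wild type gave 0 by edgeR in the 11-library fit, 0 when any 1 library was left out, and 6 when the wild-type libraries were fitted alone with heterozygous replicates 1, 3 and 4, an alternative added after seeing the data.

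Under library size alone the difference between the steps was called in 3331 genes upwards and 1549 downwards, against 2345 and 2459, and the medians of the intercalated disc list, from -0.18 to 0.01, and the cardiac lineage transcription factor list, from -0.1 to 0.08, changed sign. The B cell median of -0.65 was 0.27 with a minimum of 1 CPM in 4 libraries, 0.26 with the 8 libraries alone and 0.25 with the replicate block, where fewer of its genes were tested. Over the named genes 3954 alternatives left the call as it was, 32 lost it and 13 gained it.

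Same-numbered heterozygous and homozygous libraries did not deviate together (r = 0.014, -0.076, 0.04 and -0.046 over genes), so the numbers were not used to pair them. With the replicate block 7851 genes were called, 3922 higher and 3929 lower. With 14585012 to 19320791 counts a library, folds of genes with under 60 heterozygous counts are loosely determined.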

Other observations

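A group of genes separated single libraries rather than genotypes, and it was chosen after its values were seen. With heterozygous replicate 2 left out and the remaining 6 wild-type and heterozygous libraries fitted alone, edgeR called 6 genes, and 4 of them, Kcnj14, Ush1c, Bcat2 and Lrrc4b, lie within chr7:44429018-46238503 (GRCm38). The Fgf21 promoter shown above, at chr7:45615592-45615659, also lies in this interval. Genes named above were not sorted by this interval, and its part in their values was not tested. Kcnj14, an inward rectifier potassium channel, was at 13.5, 13.7 and 15.6 CPM in wild-type, 0.518, 17.6, 0.584 and 0.796 CPM in heterozygous and 5.72, 0.809, 10.1 and 14.1 CPM in homozygous libraries. Heterozygous replicates 1, 3 and 4 and homozygous replicate 2 were low, and heterozygous replicate 2 was at the wild-type level. Ush1c, which encodes the scaffold harmonin, was at 22.3, 24.3 and 26.2 CPM in wild-type, 10.3, 22.4, 9.45 and 10.4 CPM in heterozygous and 6.13, 3.76, 13.4 and 17.7 CPM in homozygous libraries, with the same heterozygous library at the wild-type level.

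The other called genes lie elsewhere and also separate heterozygous replicate 2 from the rest of its group. Gm11814 on chromosome 4 was at 3.75, 5.24 and 4.46 CPM in wild-type, 0.207, 3.3, 0.159 and 0.284 CPM in heterozygous and 0.233, 0.116, 7.24 and 10.2 CPM in homozygous libraries. Capn11, a calpain gene on chromosome 17, was at 0.0544, 0 and 0.0686 CPM in wild-type, 2.43, 0.0579, 2.02 and 1.36 CPM in heterozygous and 1.46, 0, 0 and 0 CPM in homozygous libraries. Homozygous replicates 1 and 2 lay below replicates 3 and 4 for Kcnj14, Ush1c, Gm11814, Bcat2 and Lrrc4b. Lrrc4b, which encodes a synaptic adhesion protein, was at 23.5, 34.7, 19.1 and 19.8 CPM in heterozygous and 3.79, 5.95, 19.4 and 11.6 CPM in homozygous libraries. Of the 6 genes only Lrrc4b was called between homozygous and heterozygous mice in the fit over 11 libraries (edgeR adjusted p = 0.00294), although its groups overlapped. Why the libraries sort this way was not tested.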
